A study of Mus musculus with 6 samples.

Results

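The genes described here are the ligands, latency proteins, receptors, antagonists and intracellular mediators of TGF-beta and BMP signalling, taken as a list of 55 gene symbols. Of these, 54 were found by symbol among the 23934 genes of the normalized count table, each once. Gdf5 was not among them. The list was not chosen by a threshold on these measurements, although earlier results of the same data were known when it was drawn up.

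Transcript levels were measured by RNA sequencing in skin cells sorted for the red fluorescent reporter tdTomato, at day 50, in 3 control and 3 Zfp750 knockout libraries. Zfp750, named ZNF750 in the genotype labels and Zfp750 in the knockout sample titles, encodes a zinc finger factor known for its role in epidermal differentiation. The series title ties its loss in the junctional zone of the hair follicle and sebaceous gland to a severe dermatitis. The comparison asked how the sorted cells differed between the genotypes. The labels give the knockouts as ZNF750 fl/fl, Rosa26 -/-, with Lrig1-CreER +/- in 1 sample and Lrig1-CreERT2 +/- in the other 2. Of the control samples, 2 are given as ZNF750 wt/fl, Rosa26 -/-, with Lrig1-CreER +/- or Lrig1-CreERT2 +/-, and the other as ZNF750 wt/wt, Rosa26 +/-, Lrig1-CreERT2 +/-. Controls thus carried the recombinase too, and 4-hydroxytamoxifen was given to every sample, on days 4 to 7 or 5 to 8 of age. Lrig1 drives the recombinase in upper follicle cells, but is also active in other skin cells. Rosa26, where such reporters are often placed, is given as -/- for 5 of the 6 samples. The titles of the knockout samples name TdTomatoe, without its locus, and those of the controls do not name it. The source of the tdTomato signal is therefore not clear from the labels.

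TGF-beta ligands are secreted in a latent complex, tethered to the matrix by latent TGF-beta binding proteins, and act once released. Free TGF-betas and activins bind type II and type I receptor kinases that phosphorylate SMAD2 and SMAD3. BMPs and some GDFs signal through SMAD1, SMAD5 and SMAD9, and both branches share SMAD4. SMAD6 and SMAD7 feed back as inhibitors, secreted antagonists such as noggin, chordin, gremlin and follistatin hold ligands away from their receptors, and the Id genes are immediate targets of BMP signalling. In skin, TGF-beta is known for driving matrix production by fibroblasts and for slowing keratinocyte growth, and BMP signalling for holding hair follicle stem cells at rest.

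Libraries held an estimated 15309994 to 20705112 reads. Values are the authors' normalized counts, that is, estimated reads divided by 1 size factor per library, and they are not scaled to gene length. The table's columns give the group but not the numbered sample, and libraries go by their column numbers, S2, S3 and S4 for controls and S5 to S7 for knockouts, the order in which values are given below. Zfp750 was 41.9, 3.75 and 314 in the controls, against 4.90, 1.82 and 7.16 in the knockouts, which puts S3 among the knockouts, so this gene does not check its label. In S3 the basal keratinocyte markers, of cells that express Zfp750, also had the lowest sum, at 599.5 normalized counts against 5344 and 24797 in the other controls and 3007 to 22085 in the knockouts. The sorted cells carried mainly dermal fibroblast transcripts: the 10 fibroblast markers took 18.6% to 34.6% of the control totals and 6.12% to 7.50% of the knockout totals. Basal keratinocyte markers took at most 0.153% of any library, and those of the upper follicle and junctional zone at most 0.0447%, so markers of the epithelial cells named in the title were a small part of the RNA. Most of the fibroblast list's sum in each library, and most of the fall in its share, came from the collagen genes Col1a1, Col1a2 and Col3a1. These were lower in every knockout library than in every control library without passing the test. The receptor genes Pdgfra and Pdgfrb rose, and Dpt, Lum, Dcn, Thy1 and Fbln1 overlapped between the groups, so the list did not fall as a whole. The summed normalized counts of the mast cell list were 44.5 to 619 in controls and 1391 to 4369 in knockouts. Those of the neutrophil list were 15.0 to 37.8 and 1009 to 2368, of which the protease gene Mmp9 alone gave 952 to 1785 in the knockouts. The other immune lists overlapped between the groups and were highest in S7. Their sums were 84.9 to 1258 and 536 to 4594 for leukocytes, and 1262 to 2095 and 1501 to 12604 for macrophages. For T cells they were 5.00 to 376 and 58.5 to 666. Those of the sebocyte list were 9378 to 11036 and 11470.0 to 53802, highest in S7. In such bulk samples fewer cells of a type and less RNA per cell cannot be told apart, and the part of these cell types in the results below was not tested.

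Promoter sequences are shown for the members that passed the test described below and have an entry in RefSeq's promoter table of build GRCm38.p6, so that the letters of SMAD-type motifs in genes that rose and genes that fell can be compared. Of the 54 genes 39 had an entry, and of the 10 that passed the test 5 did. Each line gives 120 of the 250 bases upstream of the start site, 5′ to 3′ on the gene's strand, with GGCGCC, a GC-rich motif bound by SMADs of the BMP branch, in capitals.
Grem1, chr2:113758667-113758786, minus strand: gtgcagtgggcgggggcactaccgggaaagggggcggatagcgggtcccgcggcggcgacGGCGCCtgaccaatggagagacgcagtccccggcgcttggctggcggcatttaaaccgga
Tgfb1, chr7:25686882-25687001, plus strand: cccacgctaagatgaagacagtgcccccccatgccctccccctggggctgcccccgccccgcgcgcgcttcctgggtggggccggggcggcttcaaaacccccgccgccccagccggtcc
Gdf11, chr10:128891719-128891838, minus strand: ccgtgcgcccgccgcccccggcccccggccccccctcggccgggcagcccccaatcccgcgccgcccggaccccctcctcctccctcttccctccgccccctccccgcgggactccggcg
Tgfbi, chr13:56609449-56609568, plus strand: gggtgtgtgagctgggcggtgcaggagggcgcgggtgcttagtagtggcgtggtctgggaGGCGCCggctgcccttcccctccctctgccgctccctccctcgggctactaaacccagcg
Id2, chr12:25096223-25096342, minus strand: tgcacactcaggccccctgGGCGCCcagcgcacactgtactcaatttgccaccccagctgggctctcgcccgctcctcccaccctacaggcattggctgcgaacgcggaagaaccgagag

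The motif GGCGCC reads the same on both strands. Within 250 bases upstream it occurred in 13 of the 48 promoter entries of the members (27.1%) and in 9.59% of all 32851 entries. The members' windows were also richer in G and C, at 65.6% against 53.2%. The motif stood in Grem1, which rose, and in Tgfbi and Id2, which fell, but not in Tgfb1 and Gdf11, which rose. With only 5 called genes in the promoter table, whether its presence follows the direction of change cannot be judged. The SMAD palindrome GTCTAGAC, found in 0.167% of all entries, and the AP-1 motif TGAGTCA, searched on both strands and found in 4.46%, occurred in none of the 48. A match is a description of the letters, and a missing match says only that they are not in this window.

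All 54 genes passed the filter on low values. Of them, 7 rose and 3 fell in the knockout at a limma adjusted p under 0.05, which is 18.5%, where 6.71% of all 15935 tested genes were called (4.12% higher and 2.59% lower). Tgfb1, Bmp3, Gdf6, Gdf11, Grem1, Fst and Tgfbr3 rose, and Chrdl1, Id2 and Tgfbi fell. The largest log2 fold change was that of the BMP antagonist gene Grem1, whose knockout mean was 7.69 times its control mean, and the low-level ligand gene Gdf6 had a ratio of means of 8.95. The largest fall took Tgfbi, an abundant matrix gene induced by TGF-beta, to 0.209 of its control mean. Of the 11 receptor genes 10 did not pass the test, and nor did any of the 8 SMAD genes. The log2 fold change was of size 1 or more in 14 of the 54 genes, against 13.0% of all tested genes, and its median was 0.067 in the list and 0.014 in all tested genes. An unadjusted p under 0.05 was reached by 20 of the 54 genes and by 23.2% of all tested genes. Groups did not overlap in 16 of the 54 genes (29.6%), near the 28.8% of all tested genes, so separation of the groups by itself marks no difference from the background.

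The count of called members depended on the libraries. Leaving out S2 or S6 left 3 called members each, and leaving out S3 or S7 left 5 each. Calls among all tested genes fell as well, from 1070 to 337 without S2, 345 without S6, 598 without S3 and 503 without S7. Without S3, labelled a control but with little Zfp750, the 5 were Tgfb1, Gdf6, Grem1, Tgfbi and Inhbb, the last of which was not called with S3. Tgfb1 and Grem1 kept their calls without any 1 of the 6 libraries, with adjusted p-values of 0.00917 to 0.0366 and 0.00780 to 0.0305. Rescaling the libraries to a common total raised the median log2 fold change of all genes from 0.01 to 0.31. It gave 11 members higher and 1 lower, or 91.7% higher against 70.0% as deposited. Among the calls of all tested genes 78.9% were then higher, against 61.4% as deposited. All fold changes below are therefore relative to the authors' scaling.

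**Figure D1:**
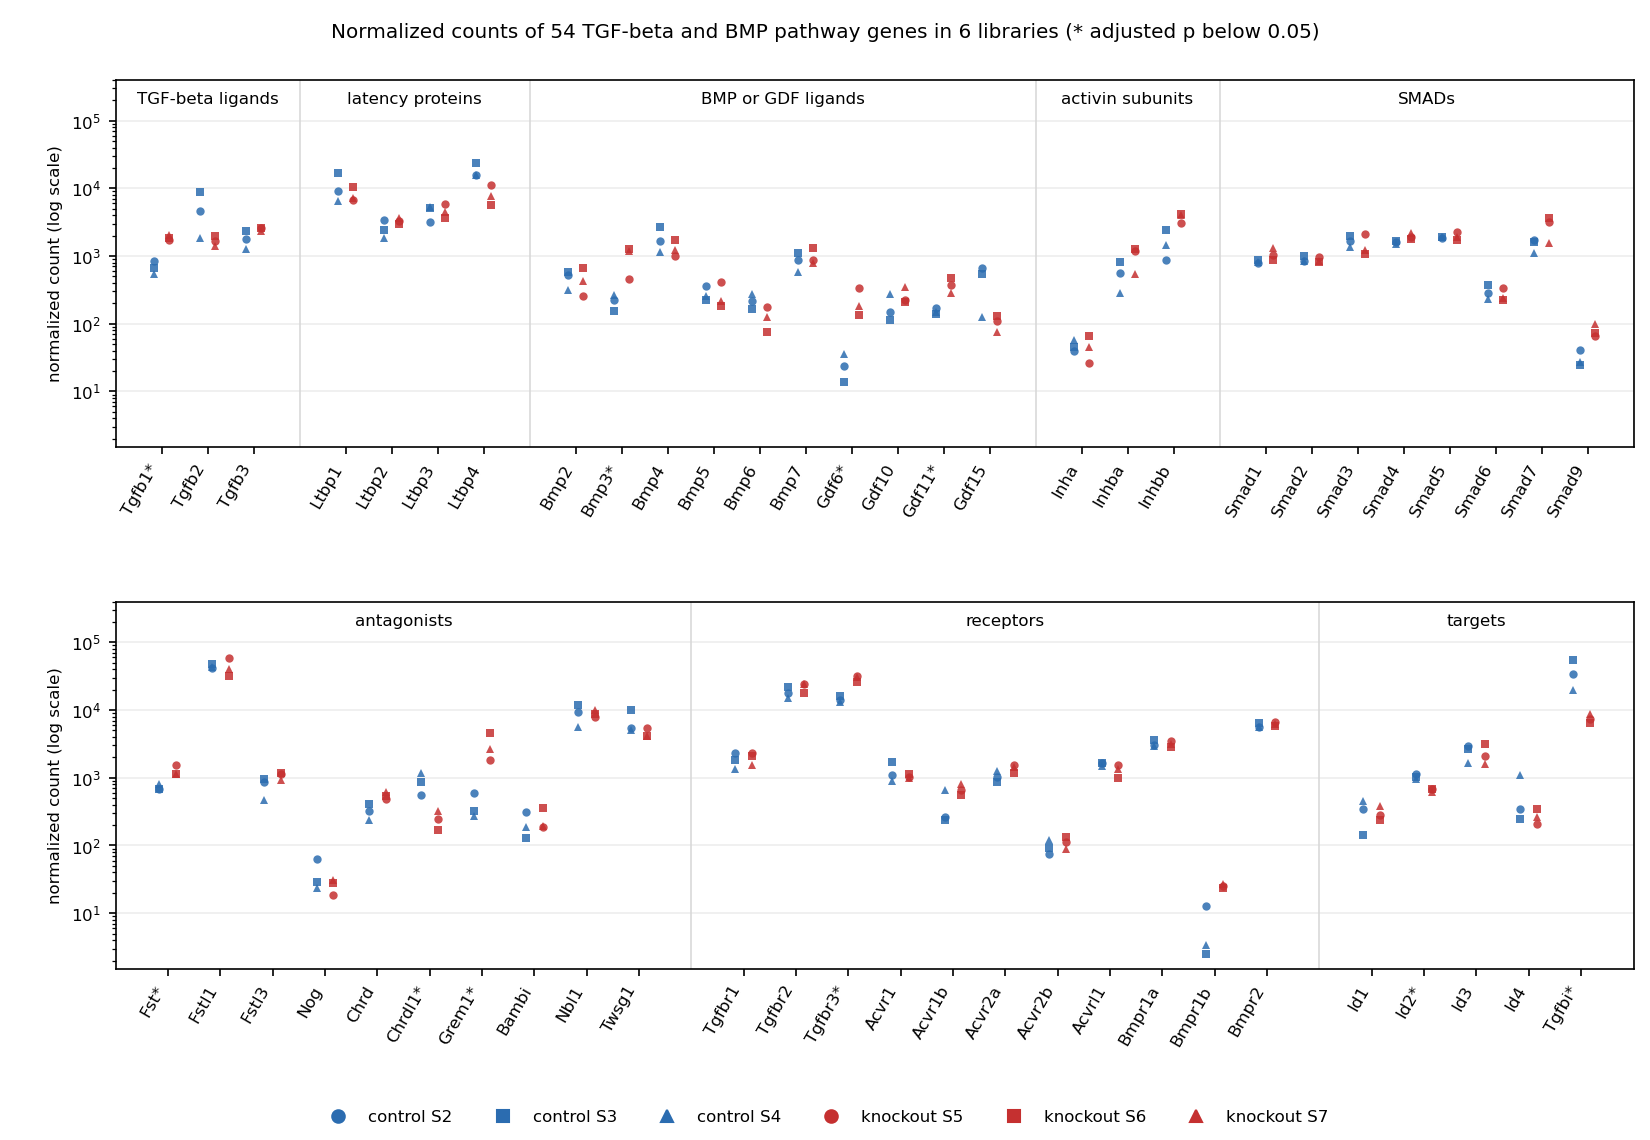
Normalized counts (vertical axis, log scale, not scaled to gene length) of the 54 genes in each library, controls in blue and knockouts in red, with 1 symbol per library and genes arranged by role; an asterisk marks an adjusted p below 0.05. The 3 knockout values lie above the 3 control values for Tgfb1, Grem1 and Gdf6 and below them for Tgfbi and Chrdl1, while the SMAD genes other than Smad9 and Smad4 overlap.

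Among the 3 TGF-beta ligand genes 1 rose and 0 fell, where 6.71% of all tested genes were called. Tgfb1 (ENSMUSG00000002603, chromosome 7, 25386427 to 25404503 in the table's own coordinates, whose build is not given), the isoform best known from inflammation and scarring, had normalized counts of 829.8, 663 and 541 in the controls, against 1725, 1841 and 2045 in the knockouts. Every knockout library lay above every control library, at 678 ± 145 in controls against 1870.5 ± 162 in knockouts (SD, n = 3 each). The log2 fold change was 1.47 ± 0.19 (SE, limma adjusted p = 0.00623). Tgfb2, an isoform of developing follicles and dermis, was 4671, 8718 and 1848 in the controls, against 1663, 1976 and 1395 in the knockouts. Control S4 lay within the knockout range, and Tgfb2 did not pass the test (-1.34 ± 0.50, adjusted p = 0.165); without S4 it did (-1.94, adjusted p = 0.0133). Tgfb3, an isoform linked to wound repair, was 1785, 2374 and 1272 in the controls, against 2629.9, 2623 and 2303 in the knockouts, overlapping at S3 and S7 (0.52 ± 0.23, adjusted p = 0.236).

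Levels of different genes were compared as normalized counts per kb of exon, with exon lengths from the GENCODE M21 annotation. On this scale Tgfb2 made up 53.8%, 64.4% and 39.8% of the summed TGF-beta isoforms in the controls, against 20.4%, 23.0% and 18.2% in the knockouts. Tgfb1 made up 5.62% to 13.4% in the controls, against 24.3%, 24.6% and 30.6% in the knockouts. Tgfb3 made up 35.2%, 30.0% and 46.9%, against 55.3%, 52.3% and 51.3%, the largest share in each knockout. The groups did not overlap for any of the 3 shares; these shares were picked with the values in view and are given without a test. The summed level of the 3 isoforms was 1547 ± 769 in controls against 1405 ± 77.2 in knockouts per kb (SD, n = 3 each), and its groups overlapped.

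Of the 4 latent TGF-beta binding proteins, which hold the ligand in the matrix, 0 passed the limma test. Where 23.2% of all tested genes had an unadjusted p under 0.05, 1 of these 4 genes did. That gene was Ltbp4, whose product also organises elastic fibres, at normalized counts of 15484, 23475 and 15923 in the controls, against 11069, 5714 and 7709 in the knockouts. Its groups did not overlap (log2 fold change -1.19 ± 0.30 SE, adjusted p = 0.0623), and without knockout S5 it was called (-1.43, adjusted p = 0.0438). Ltbp1 was 9163, 16665 and 6599 in the controls, against 6671, 10578 and 7155 in the knockouts. Its values interleaved between the groups, as did those of Ltbp3, at 3225, 5196 and 5383 in the controls, against 5939, 3589 and 4529 in the knockouts. Ltbp2 likewise overlapped (0.41 ± 0.23, adjusted p = 0.325). Ltbp4 was the highest of the 4 per kb in each control library, with 59.6% to 63.1% of their summed level. In the knockouts it held 33.5% to 50.5%, and in S6 Ltbp1 took a larger share (37.5%).

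**Figure D2:**
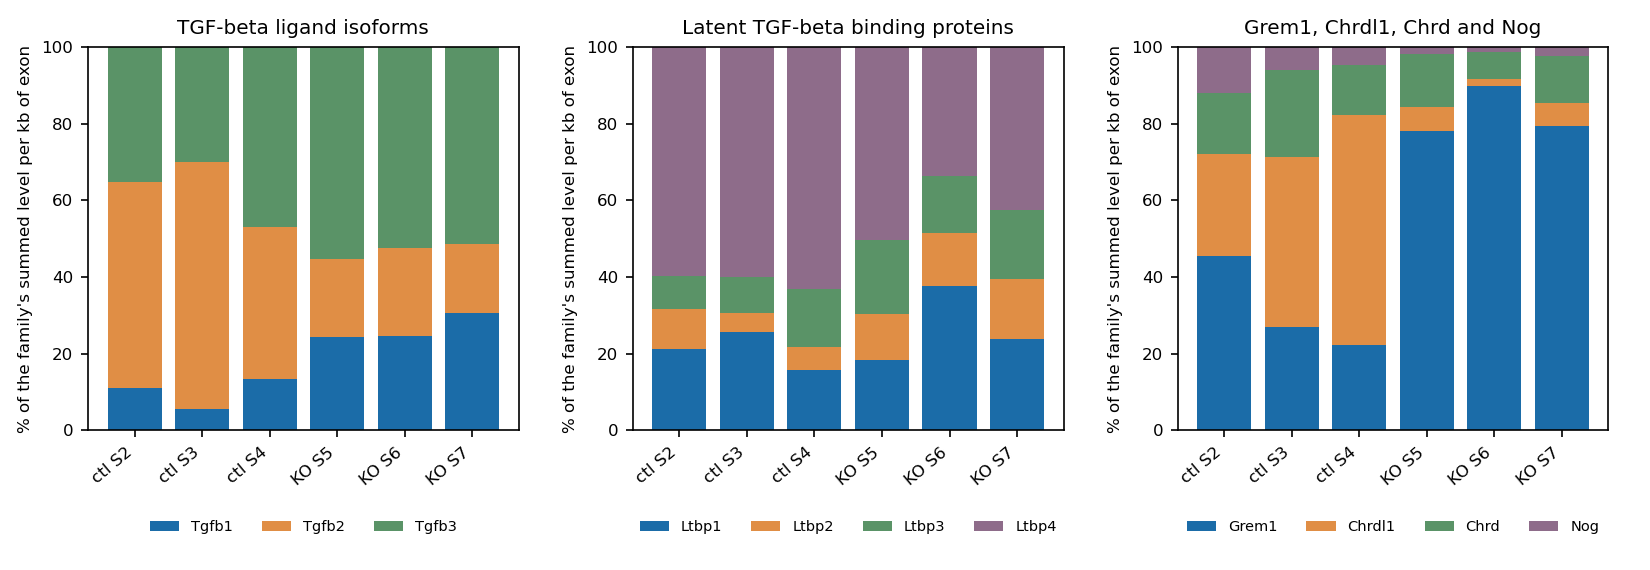
Stacked bars give, for each library, the percentage of a family's summed normalized count per kb of exon held by each gene, for the 3 TGF-beta isoforms, the 4 latent TGF-beta binding proteins and the BMP antagonists Grem1, Chrdl1, Chrd and Nog. Tgfb2 holds 39.8% or more in the controls and 23.0% or less in the knockouts, and Grem1 at most 45.4% and at least 78.0% of the 4 genes shown, which leave out the more abundant antagonists Nbl1 and Twsg1.

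Among 10 measured BMP and GDF ligands 3 rose and 0 fell by limma, where 6.71% of all tested genes were called. An unadjusted p under 0.05 was found for 5 of them, against 23.2% of all tested genes. Gdf6 (ENSMUSG00000051279, chromosome 4), a ligand of joint and skeletal patterning, was low in the controls, at normalized counts of 24.1, 13.7 and 36.2, and reached 342, 136 and 185 in the knockouts. The lowest knockout value lay above the highest control value even at the ends of their exact 95% Poisson intervals, 115 in S6 and 48.7 in S4, which cover counting error only. The log2 fold change was 2.72 ± 0.40 (SE, adjusted p = 0.0101), and the call was lost without S2 (adjusted p = 0.0505). Bmp3 (ENSMUSG00000029335, chromosome 5), an unusual family member that opposes other BMPs, went from 222, 154 and 266 to 450.1, 1263 and 1194. Knockout S5 stood well below S6 and S7 but above each control (2.03 ± 0.41, adjusted p = 0.0302); the call was lost on leaving out either of S2 and S3 or either of S6 and S7 (adjusted p from 0.0838 to 0.116). Gdf11, a close relative of myostatin that signals through the activin receptors, went from 173, 139 and 147 to 375, 471 and 288. Its groups were separate (1.23 ± 0.22, adjusted p = 0.0218), and the call was lost without S2, S3, S5 or S6 (adjusted p = 0.0546 to 0.0826).

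The other 7 BMP and GDF ligands did not pass the test. Bmp4, the main dermal BMP of the follicle, was the highest BMP per kb in every library and took 55.4% to 68.5% of the summed level of Bmp2 to Bmp7 in controls and 47.2% to 50.1% in knockouts. Its normalized counts were 1685, 2709 and 1136 in the controls, against 1011, 1705 and 1209 in the knockouts, which overlapped (-0.44 ± 0.33, adjusted p = 0.479). Bmp7, a BMP of epithelia and dermis, was 867, 1092 and 588 in the controls, against 887, 1335 and 796 in the knockouts. It overlapped, as did Bmp2, Bmp5, Bmp6 and Gdf10, with log2 fold changes of -0.80 for Bmp6 to 0.57 for Gdf10. Gdf15, a hormone-like stress cytokine, was 667, 543 and 128 in the controls, against 109.8, 130.3 and 74.8 in the knockouts. Control S4 fell among the knockouts (-1.73 ± 0.58, adjusted p = 0.126), and without S4 Gdf15 was called lower (-2.45, adjusted p = 0.00516). Control S4 was thus the library closest to the knockouts for both Tgfb2 and Gdf15. Of the controls it also had the lowest fibroblast share of the library total, a share made up mostly of collagen transcripts. Its sums of the leukocyte list (1258 against 84.9 and 136 normalized counts) and the basal keratinocyte list (24797 against 599.5 and 5344) were the highest of the controls. So was its sum of the skeletal muscle list (9111 against 879 and 4665). The part of these cells in the difference was not tested.

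Of the activin and inhibin subunit genes 0 of 3 passed the limma test. An unadjusted p under 0.05 was found for 1 of them, and for 23.2% of all tested genes. Inhbb, which encodes the beta-B subunit of activin B, was 887, 2383 and 1431 in the controls, against 3093, 4122 and 4038 in the knockouts. The groups did not overlap (log2 fold change 1.36 ± 0.34 SE, adjusted p = 0.0588). Control S3 was the highest control, and without it Inhbb was called higher (1.72, adjusted p = 0.0204), as it was after rescaling to a common total (1.68, adjusted p = 0.0111). Inhba, the beta-A subunit of activin A, a factor induced in healing wounds, was 564, 816 and 284 in the controls, against 1173, 1253 and 545 in the knockouts, overlapping at S7 (0.86 ± 0.44, adjusted p = 0.292). Inha, the alpha subunit found in inhibins, stayed at 26.5 to 66.5 in all 6 libraries. Per kb the beta subunits summed to 455 ± 206 in controls against 1036 ± 127 in knockouts (SD, n = 3 each). By mean level per kb Inhbb, at 881, was the highest ligand gene of the list in the knockouts, followed by Tgfb3 at 745, whereas Tgfb2, at 877, and Bmp4, at 820.0, were the highest in the controls. Within single libraries the order of neither pair held throughout. Inhbb was 727, 969 and 949 per kb in the knockouts, against 777, 775 and 681 for Tgfb3. In the controls Tgfb2 was 807, 1505.5 and 319 per kb, against 750, 1205 and 505 for Bmp4.

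Of 10 genes for secreted and membrane antagonists 2 rose and 1 fell, where 6.71% of all tested genes were called. Grem1 (ENSMUSG00000074934, chromosome 2, 113576509 to 113588992 in the table's own coordinates), which encodes gremlin, an antagonist that binds BMP2, BMP4 and BMP7, was 593, 319.8 and 270.0 in the controls, against 1843, 4622 and 2639.8 in the knockouts. The lowest knockout library lay above the highest control library, at 394 ± 174 against 3035 ± 1431 (SD, n = 3 each), a log2 fold change of 2.89 ± 0.39 (SE, adjusted p = 0.00779). Chrdl1 (ENSMUSG00000031283, chromosome X), a chordin-like antagonist of BMP4, ran the other way. It was 565, 852 and 1189 in the controls, against 242, 169.5 and 325 in the knockouts (-1.77 ± 0.32, adjusted p = 0.0224). Its call was lost without S3 or S6 (adjusted p = 0.0650 and 0.0841) and, by a small margin, after rescaling to a common total (-1.45, with an adjusted p just above 0.05).

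Follistatin, the activin-binding antagonist encoded by Fst, rose from 690.0, 673 and 806 to 1543, 1120.2 and 1126 (log2 fold change 0.79 ± 0.18 SE, adjusted p = 0.0447). The groups were separate, but the call was lost without any 1 library other than S4 (adjusted p from 0.0837 to 0.159), without the filter (0.0512) and without the intensity trend (0.0792). Chordin, encoded by Chrd, was 318, 405 and 241 in the controls, against 492, 536 and 615 in the knockouts. It was separated in the same direction without passing the test (0.78 ± 0.22, adjusted p = 0.0819). Noggin, encoded by Nog, a classical antagonist of BMP2 and BMP4 in the follicle, was low throughout, at 23.5 to 63.5 in controls and 18.6 to 31.0 in knockouts.

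For the most abundant antagonist genes of the list the groups overlapped. Fstl1, a follistatin-like glycoprotein of mesenchymal cells, was 41639, 47113 and 42896 in the controls, against 58443, 31571 and 40504 in the knockouts (log2 fold change -0.06 ± 0.33 SE, adjusted p = 0.939). Nbl1, a DAN-family antagonist, was 9249.8, 11967 and 5628 in the controls, against 7859, 8787 and 10138 in the knockouts (0.06 ± 0.29, adjusted p = 0.933). Twsg1, a chordin cofactor, was 5499, 9941 and 5031 in the controls, against 5374, 4151 and 4131 in the knockouts, overlapping at S5. Bambi, a receptor-like decoy (0.24 ± 0.37), and Fstl3, an activin binder (0.54 ± 0.29), also overlapped between the groups. Among Grem1, Chrdl1, Chrd and Nog, grouped after their values were seen, Grem1 held 45.4%, 27.1% and 22.2% of the summed level per kb in the controls, against 78.0%, 89.7% and 79.4% in the knockouts. Chrdl1 held 43.6% ± 16.7 of it in controls, against 4.77% ± 2.39 in knockouts (SD, n = 3 each). With the abundant Nbl1 and Twsg1 added, Grem1 held 0.952% to 2.41% of the 6 genes' summed level in controls and 8.11% to 17.5% in knockouts, while Nbl1 held 67.9% to 76.7% over the 6 libraries. The sum of the 6 genes overlapped between the groups, at 6023 ± 2033 and 6146 ± 588 per kb (SD, n = 3 each). Per kb, the ratio of Grem1 to Bmp4 was 0.191, 0.0640 and 0.129 in the controls, against 0.988, 1.47 and 1.18 in the knockouts, a comparison also picked with the values in view and not tested.

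Of 11 receptor genes 1 rose and 0 fell, which is 9.09%, near the 6.71% called among all tested genes. Tgfbr3 (ENSMUSG00000029287, chromosome 5), which encodes betaglycan, a coreceptor that presents TGF-beta, TGF-beta 2 above all, and inhibin, was 14036, 15875 and 13223 in the controls, against 32165, 25886 and 30555 in the knockouts. The groups were far apart relative to their spread, at 14378 ± 1359 and 29535 ± 3261 (SD, n = 3 each), a log2 fold change of 1.04 ± 0.23 (SE, adjusted p = 0.0396). The call was lost without any 1 of the 6 libraries, with adjusted p-values of 0.0629 to 0.175 and log2 fold changes of 0.97 to 1.13, and without the filter on low values (adjusted p = 0.0782). Of the 10 fibroblast markers 2, Pdgfra and Pdgfrb, rose over the same libraries. The share of the library total taken by the whole list was lower in each knockout, mostly through its collagen genes, as given above. The part of fibroblast content in the change of Tgfbr3 was not tested.

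The 10 other receptor genes did not pass the test. Of them 2, Acvr1b and Bmpr1b, had an unadjusted p under 0.05, as had 23.2% of all tested genes. Tgfbr2, the type II receptor for TGF-beta, was 17883, 21592 and 14893 in the controls, against 24268, 17704 and 24086 in the knockouts (log2 fold change 0.28 ± 0.26 SE, adjusted p = 0.564). Bmpr2, the type II receptor for BMPs, was 5612, 6429 and 5691 in the controls, against 6676, 5766 and 6139 in the knockouts, a difference of 0.07 with a 95% interval of -0.31 to 0.45. The type I receptor genes Tgfbr1, Acvr1, Acvrl1 and Bmpr1a had log2 fold changes of -0.32 for Acvrl1 to 0.11 for Tgfbr1, and their groups overlapped. So did those of the type II activin receptor genes Acvr2a (0.42 ± 0.19) and Acvr2b (0.22 ± 0.27). Acvr1b, the type I activin receptor, was 264, 235 and 668 in the controls, against 666, 552 and 823 in the knockouts, with S4 again among the knockouts (0.93 ± 0.38, adjusted p = 0.201; 1.40 and adjusted p = 0.0144 without S4). Bmpr1b was the lowest gene of the list. It was at 12.7, 2.50 and 3.36 in the controls, or 10, 2 and 4 estimated reads, and at 25.5, 23.7 and 27.1 in the knockouts, or 26, 26 and 34 reads (1.23 ± 0.36, adjusted p = 0.0944), with separate groups.

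**Figure D3:**
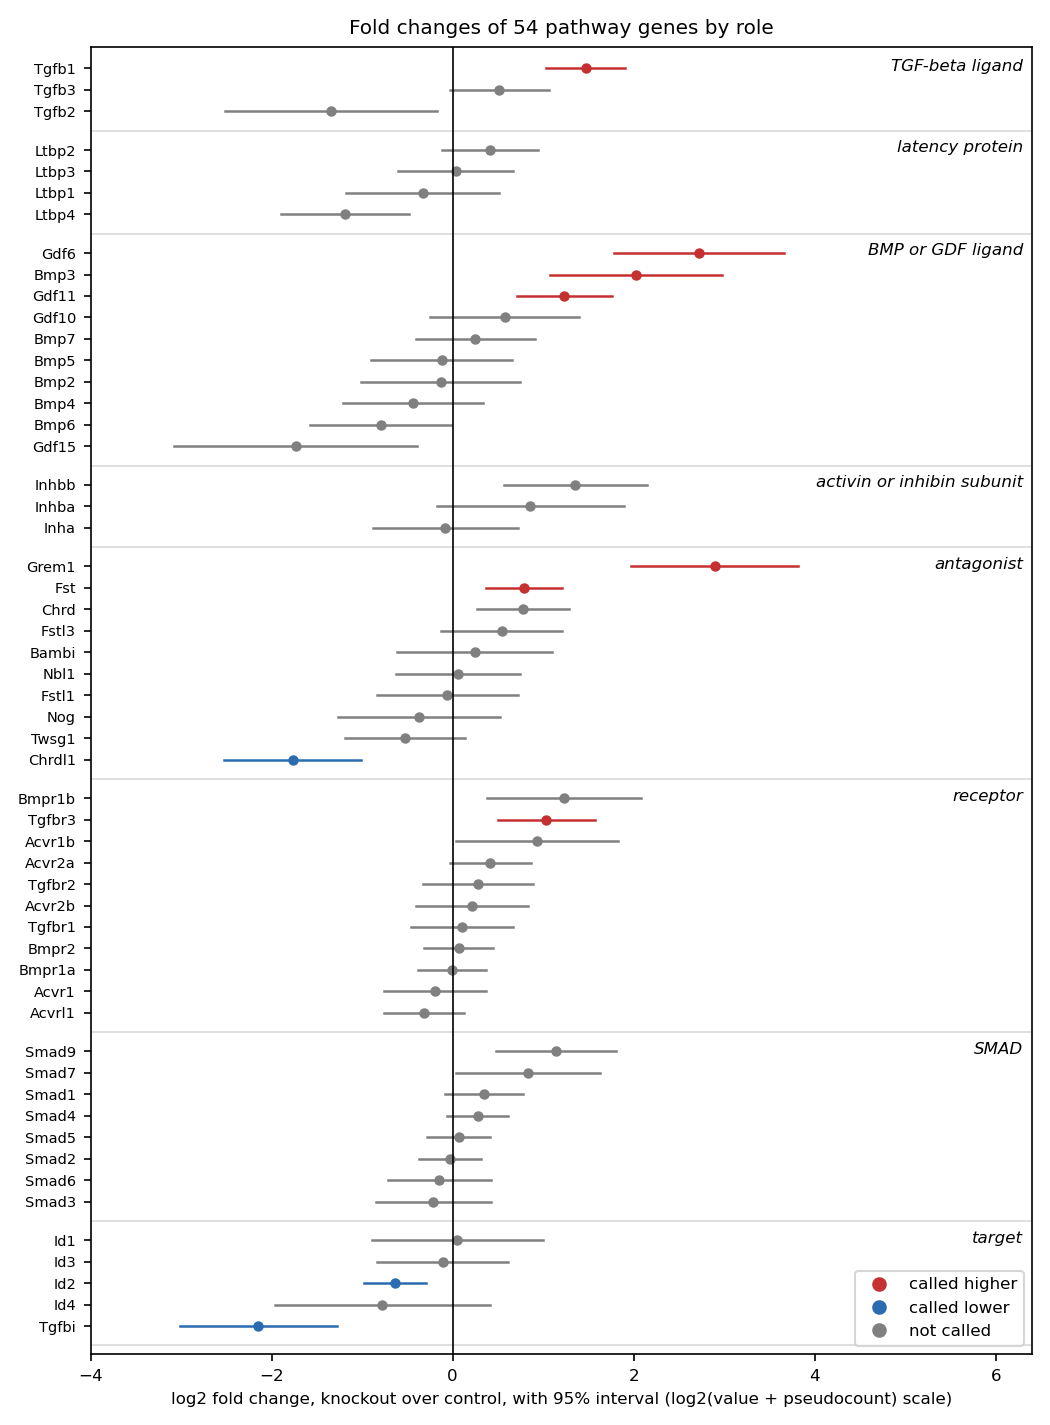
Log2 fold change of each gene, knockout over control, on the log2(value + pseudocount) scale, with its 95% interval (horizontal bar), grouped by role; red genes rose, blue genes fell and grey genes did not pass an adjusted p of 0.05. Values run from -2.15 for Tgfbi to 2.89 for Grem1, and the SMAD genes lie between -0.22 and 1.14.

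None of the 8 SMAD genes passed the limma test (0 called). For 2 of them, Smad7 and Smad9, the unadjusted p was under 0.05, as it was for 23.2% of all tested genes. Smad7, the inhibitor that TGF-beta itself induces, was 1747, 1635 and 1102 in the controls, against 3158, 3678 and 1548 in the knockouts. Knockout S7 lay among the controls, and S5 and S6 above them (log2 fold change 0.83 ± 0.34 SE, adjusted p = 0.199). Smad9, a BMP-branch SMAD, was 40.7, 25.0 and 26.9 in the controls, against 66.7, 72.0 and 97.9 in the knockouts, with separate groups (1.14 ± 0.28, adjusted p = 0.0581). It was called without the intensity trend (adjusted p = 0.0430) and after rescaling to a common total (adjusted p = 0.0481). Smad5, a second BMP-branch SMAD, was 1829.9, 1909.8 and 1887 in the controls, against 2249, 1743 and 1931 in the knockouts (0.07, 95% interval -0.29 to 0.42). Smad4, the shared partner, was 1608, 1689 and 1526 in the controls, against 1939, 1758 and 2159 in the knockouts, separate but close (0.28 ± 0.15, adjusted p = 0.304). Smad1, Smad2, Smad3 and the inhibitory Smad6 had log2 fold changes of -0.22 for Smad3 to 0.35 for Smad1 and overlapped. The phosphorylation state of the SMAD proteins, which sets their activity, is not measured by transcript counts.

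Of the 5 target genes in the list 2 fell and 0 rose, where 6.71% of all tested genes were called. Tgfbi (ENSMUSG00000035493, chromosome 13, 56757336 to 56787376 in the table's own coordinates) encodes a secreted matrix protein named for its induction by TGF-beta, and had the highest mean level per kb of the list in the controls. Its normalized counts were 34256, 53932 and 19654 in the controls, against 7383, 6539 and 8597 in the knockouts. No knockout library reached the lowest control (log2 fold change -2.15 ± 0.37 SE, adjusted p = 0.0181). The call was lost without S2, S6 or S7 (adjusted p = 0.0545 to 0.0866). The controls ran in the order S3, S2, S4 for Tgfbi, and in the same order for Tgfb2 and for the collagen gene Col1a1. Col1a1 was at 4570000 in S3, 2150000 in S2 and 1430000 in S4, against 333927 to 407741 in the knockouts. The order was not particular to these genes. The library totals ran in it too, at 25861510, 19455540 and 16167801 normalized counts, as did Ltbp1, Bmp4, Nbl1, Inhba and Chrd. Of these genes Inhba and Chrd had higher means in the knockouts.

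Id2, an inhibitor of basic helix-loop-helix factors, was 1139.9, 1027 and 944 in the controls, against 678, 693 and 618 in the knockouts, a narrow and separate pair of groups (log2 fold change -0.64 ± 0.15 SE, adjusted p = 0.0451). Its call was lost without any 1 library other than S4 (adjusted p from 0.0935 to 0.173), without the filter (0.0563), without the intensity trend (0.0860), with TMM factors (0.0529) and after rescaling to a common total (-0.32, adjusted p = 0.369). Id3, the most abundant Id gene per kb in the means of both groups, was 2976, 2628 and 1646 in the controls, against 2072, 3125 and 1576 in the knockouts (-0.11 ± 0.31, adjusted p = 0.864). Id1 was 346, 145 and 452 in the controls, against 284, 236 and 382 in the knockouts (0.05 ± 0.41, adjusted p = 0.955), and Id4 overlapped as well, with control S4 at 1113 and the other 5 libraries at 211 to 348.

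Other genes of the pathway, from lists of 132 symbols drawn up with earlier results known, gave 13 higher and 3 lower of 111 tested. This is 14.4%, against the 6.71% of all tested genes given above, with a median log2 fold change of 0.23. After rescaling to a common total 23 were higher and 5 lower. Called genes were spread over the lists: 3 of 12 other ligands and receptors, 1 of 31 extracellular activators and antagonists, 3 of 22 intracellular regulators, 7 of 32 usual TGF-beta targets and 2 of 14 usual BMP targets. Without S2 or S6 the count was 7 in each case, and without S7 it was 10.

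Pmepa1, a TGF-beta-induced feedback inhibitor that sequesters SMAD2 and SMAD3, was 1337, 1155 and 1886 in the controls, against 7929, 7207 and 7172 in the knockouts. It had the smallest adjusted p of these genes (log2 fold change 2.37 ± 0.21 SE, adjusted p = 0.00162). Furin, the protease that cleaves TGF-beta and BMP precursors, rose from 2754, 3716 and 3091 to 5982, 7046 and 7698 (1.12 ± 0.19, adjusted p = 0.0160; lost without S2, S6 or S7, at 0.0601 to 0.0831). Both genes had separate groups. Neo1, a receptor of repulsive guidance molecules that act as BMP coreceptors, fell from 2721, 4551 and 2954 to 1542, 1314 and 1264 (-1.27 ± 0.22, adjusted p = 0.0184; lost without S6 or S7, at 0.0826 and 0.0676). Zfyve16, an endosomal SMAD-binding protein, fell from 1098, 1148 and 827 to 498, 459 and 333 (-1.24 ± 0.21, adjusted p = 0.0172; lost without S2, S3 or S6, at 0.0551 to 0.0812).

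The usual TGF-beta targets did not move as 1 block: 6 of 32 rose, 1 fell, and 25 did not pass the test. Tnc, the matrix glycoprotein tenascin C of wounds, went from 1038, 496 and 3507 to 57693, 60215 and 49449 (log2 fold change 5.50 ± 0.62 SE, adjusted p = 0.00414). Postn, periostin, another matrix protein of remodelling tissue, went from 10171, 11964 and 24752 to 109457, 86493 and 82873 (2.67 ± 0.40, adjusted p = 0.0102; 0.0697 without S2). Knockout values of both matrix genes lay far above each control. The protease inhibitor gene Timp1 rose from 75.0, 94.9 and 51.3 to 679, 407 and 578 (2.77 ± 0.28, adjusted p = 0.00274). The NADPH oxidase gene Nox4 rose from 426, 255 and 665 to 2131, 2126 and 2079.6 (2.32 ± 0.31, adjusted p = 0.00758). The metalloprotease gene Adam12 rose from 481, 1350.3 and 1129 to 3239.9, 3497 and 4077 (1.98 ± 0.36, adjusted p = 0.0222; lost without S6 or S7, at 0.0865 and 0.0748). These 3 genes had separate groups as well. Timp3, a matrix-bound protease inhibitor, fell from 12029.9, 11243 and 17654 to 4933, 3194 and 4661 (-1.67 ± 0.26, adjusted p = 0.0120; lost without S2 or S6, at 0.0526 and 0.0549). Tgfbi and Col1a1 thus lay lower in the knockouts over the same libraries in which Tnc and Postn lay higher. Of the BMP targets the transcription factor gene Tbx3 rose from 197, 109 and 117 to 863, 1271 and 666 (2.65 ± 0.31, adjusted p = 0.00455). The remaining calls were Mstn, Rgma, Ldlrad4, Ccn2 and Gata2, each higher and each losing its call without 3 or more of the libraries in turn.

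**Figure D4:**
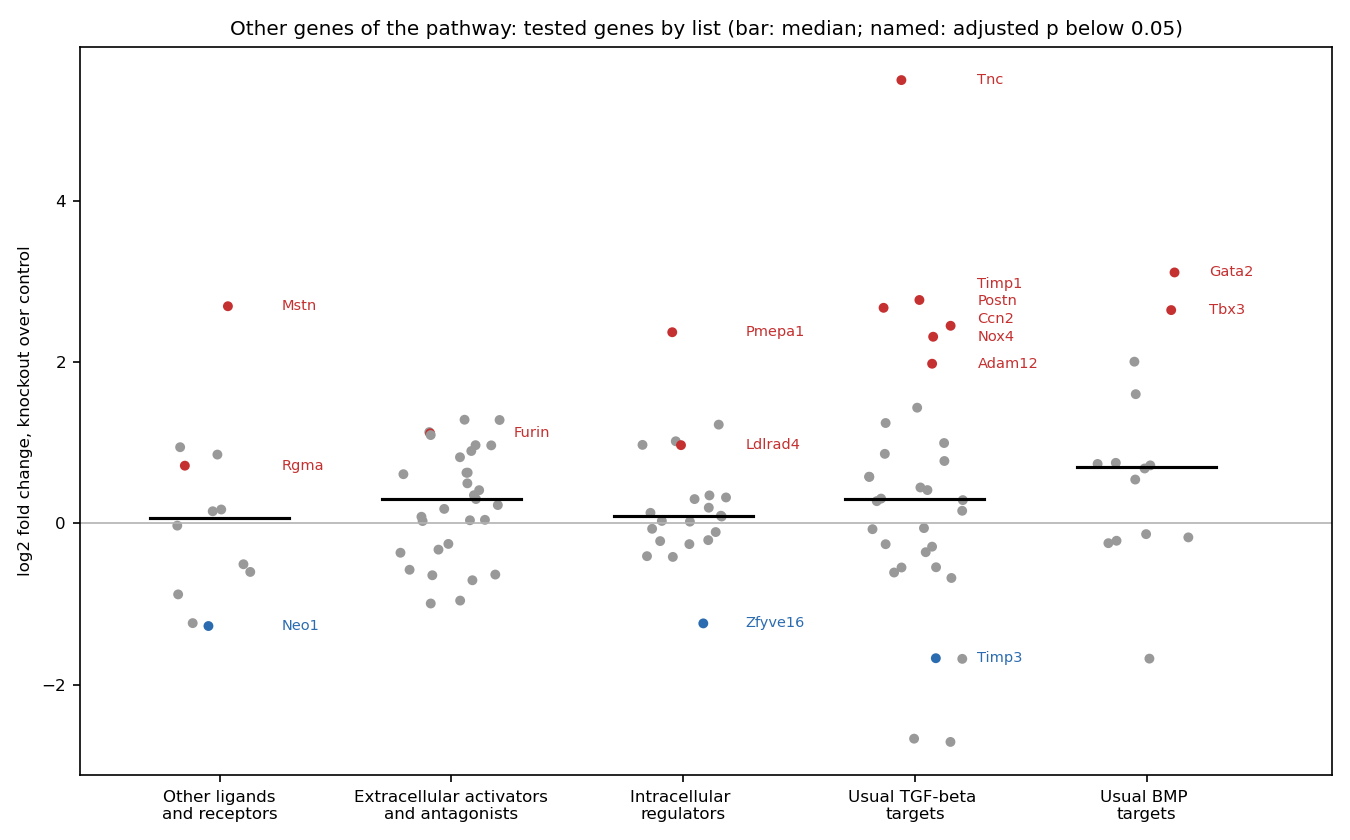
Log2 fold change, knockout over control, of the 111 tested pathway genes outside the main list, by list, with a bar at each list's median; named genes passed an adjusted p of 0.05 (red higher, blue lower). List medians lie between 0.06 and 0.70, and Tnc, at 5.50, is the largest value.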

How the data were processed

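RNA from sorted mouse skin cells was sequenced in 6 libraries. The authors deposited normalized counts, a signal that equals estimated reads over each library's size factor. TopHat2 2.1.0 and Partek 9.0.20.0202 appear in the submitters' processing notes, without their roles. The build, the annotation and the strand setting were not given in the sources used here, and overlapping genes are uncertain for that reason. Of values up to 1000 reads, 78.7% to 81.2% per library were whole reads within 0.05, so no count model was run.

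Groups were compared with limma 3.58.1 (R 4.3.3; empirical Bayes, intensity trend, 2-sided tests) after taking log2(value + 9.14), where the pseudocount is 0.5 CPM at the mean library total and understates changes of low genes. Genes reaching 1 CPM in 3 libraries were tested, and p-values were adjusted over all 15935 (Benjamini-Hochberg). The procedure was tested on simulated data. Leave-one-out fits kept the same genes.

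Members and lists were chosen with earlier results of these data known. Values per library are given for called members, for those with separate groups and a log2 change of 1 or more, for the 3 highest of each role by mean (ligands of all kinds as 1 role), and for up to 8 called pathway genes per direction by adjusted p; other genes with values (Bmp4, Bmp7, Gdf15, Inhba, Chrd, Acvr1b, Id1, Id4 and Col1a1 among them) were named after their values were seen. Libraries are not stated to be separate mice; the p-values then reflect no more than how these 6 samples vary, which may be technical.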

Additional observations from a re-analysis of the deposited data

How the results depend on the processing

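The number of members called stayed within 1.5 times the 10 of the fit as designed under both other pseudocounts (10 each), without the filter (7), without the intensity trend (9), after rescaling to a common total (12) and with TMM factors (9). Leaving out 1 library gave 3 to 12 members, 337 to 1285 of all genes and 7 to 18 of the other pathway genes. The lowest counts came without S2 or S6: 3 members and 337 genes without S2, 3 and 345 without S6; without S3 and S7 they were 5 and 598, and 5 and 503. Rescaling to a common total raised the other pathway genes to 28 and the higher share of all calls to 78.9%, against 61.4%. No member called as designed changed direction; rescaling changed the sign of 11 uncalled ones (Bmp2, Bmp5, Inha, Fstl1, Acvr1, Acvrl1, Bmpr1a, Smad2, Smad3, Smad6 and Id3). The cause of these dependences was not tested, beyond fewer samples in the leave-one-out fits. Leaving out S4, Tgfb2, Gdf15 and Acvr1b were called as well. For Bmpr1b, at 2 to 10 reads in the controls, counting error limits the fold change.

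The columns do not carry the replicate numbers of the labels, so the paired fit by those numbers was not run. Their names hold another number, marked UB, of which 2 and 3 occur in both groups (S2 with S6, S3 with S7) and whose meaning is not given. Same-numbered libraries deviated from their group means with correlations of 0.25 and -0.22 across genes. Those of the other control and knockout pairs ran from -0.31 to 0.41. With only 2 same-numbered pairs, whether the numbers mark pairing cannot be judged. A replicate block by this number, added after the data were seen and with 1 residual degree of freedom, called 11 members (6 higher, 5 lower; 7 shared), 1527 genes and 16 other pathway genes. S4 and S5 are the only libraries with their numbers, so the block absorbed them. The fold changes of this fit came from S2, S3, S6 and S7 alone. Fst, Tgfbr3 and Id2 were not called (adjusted p = 0.0715, 0.113 and 0.0725), and Tgfb2, Ltbp4, Gdf15 and Acvr1b were. Tgfb2, Gdf15 and Acvr1b were also called without S4, and Ltbp4 without S5, so these calls are not separate results.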
